A study of Mus musculus with 9 samples.

Results

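Mitosis is the step of the cell cycle in which copied chromosomes are condensed, attached to a spindle of microtubules and pulled apart, after which the cell is cut into daughters. The mRNAs of 45 genes that carry out these steps were followed here in cultured mouse adipose-derived stem cells (ASCs), the fibroblast-like progenitors of fat tissue, from 3 depots. The 45 genes were taken by name from a count table of 54532 genes and all of them were found. They were sorted by known function into 8 roles: mitotic entry, the spindle checkpoint, the chromosomal passenger complex, the centromere and kinetochore, spindle motors and assembly, the central spindle and cytokinesis, chromosome structure, and anaphase and proteolysis. The ASCs came from C57BL/6 mice, from subcutaneous adipose tissue (Sub-ASC), abdominal adipose tissue (Ab-ASC) and the perivascular adipose tissue around arteries (PVASC). Each group had 3 bulk RNA-seq libraries from 1 µg of total RNA, and the labels list no treatment or genetic change for any group. The study expanded all cultures in one serum-containing stem cell medium with leukemia inhibitory factor and FGF, and gave a range of passages for the sequenced cells without a passage, density or time since feeding for any library. The ages of the mice, and whether the libraries of a group came from separate mice, were not stated in the sources used here, so p-values measure only the spread between these libraries, which may be technical.

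These genes are read mostly in cells that are about to divide. Cyclin B and CDK1 drive entry into mitosis, the kinetochore (a protein plate on each centromere) holds the microtubules, and the spindle checkpoint blocks anaphase until every chromosome is attached. CDC20 then turns on the anaphase-promoting complex, which marks securin and cyclin B for destruction and frees separase to cut the rings that hold sister chromatids together. Cultured ASCs divide freely and leave the cell cycle when crowded or when they differentiate. In a bulk sample, a larger share of dividing cells and more of these mRNAs in each dividing cell cannot be told apart.

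The libraries held 20524173 to 29881036 counted reads, and counts are given as CPM, counts scaled to a common library total after edgeR's TMM method. Of all genes, 16526 had enough reads to be tested, and all 45 mitotic genes were among them. The libraries of a group were close to each other in PVASCs and Sub-ASCs, with a biological coefficient of variation of 3.86% and 5.70%. In Ab-ASCs it was 12.3%, and 1 library, Ab-ASC 1, stood apart from Ab-ASC 2 and 3. This gap followed base composition across all genes tested. For genes with a GC content up to 43%, the median log2 CPM of Ab-ASC 1 minus the mean of Ab-ASC 2 and 3 was -0.41, and for genes above 51% GC it was 0.13. The counts and medians of the 45 genes are therefore also given without Ab-ASC 1.

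Markers of cell types were compared as a check of the labels. All 8 ASC markers were tested, and their summed level was 6924 to 6951 CPM in Sub-ASCs, 3686 to 3808 CPM in Ab-ASCs and 4273 to 4414 CPM in PVASCs. Against Sub-ASCs, 4 of them were higher and 4 lower in PVASCs, and 3 were higher and 5 lower in Ab-ASCs. At the threshold given below, 34.7% of all genes tested were called higher and 35.7% lower in PVASCs against Sub-ASCs. For Ab-ASCs these shares were 37% and 38.3%, so most genes were called in one direction or the other. The 12 mesothelial markers summed to 3.31 to 3.42 CPM in Sub-ASCs, 129 to 137 CPM in Ab-ASCs and 51.8 to 53.5 CPM in PVASCs, with Upk1b, Lrrn4 and Muc16 at 0 in all Sub-ASC libraries. Of the 11 that could be tested, 9 were higher and 1 lower in PVASCs than in Sub-ASCs, and 10 were higher in Ab-ASCs. The 5 smooth muscle markers summed to 58.7 to 63.4, 4359 to 5418 and 2646 to 2790 CPM in the same order of groups, and the 4 that could be tested were higher in both comparisons with Sub-ASCs. The 5 endothelial markers summed to 167 to 181, 61.0 to 63.0 and 714 to 723 CPM, with 4 higher and 1 lower in PVASCs and all 5 lower in Ab-ASCs. The 6 haematopoietic markers summed to 239 to 244, 302 to 395 and 291 to 300.4 CPM, with 2 higher and 4 lower in either comparison with Sub-ASCs. The mesothelial and smooth muscle sums were thus lowest in Sub-ASCs, as was the sum of the mitotic genes below. The haematopoietic sum was lowest there too, although 4 of its 6 markers were called lower in either other group. The ASC marker sum was highest in Sub-ASCs although its markers went both ways. The part of these markers in the results was not tested.

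Nearly every mitotic gene was far higher in Ab-ASCs and PVASCs than in Sub-ASCs. The CPM of the 45 genes summed to 283.6 ± 11.9 in Sub-ASCs, 2641 ± 127 in Ab-ASCs and 2419 ± 9.84 in PVASCs (SD, n = 3 each), which was 9.31 times the Sub-ASC level in Ab-ASCs and 8.53 times in PVASCs. In PVASCs against Sub-ASCs, 44 of the 45 genes were higher and 1 was lower at a Benjamini-Hochberg adjusted p of 0.05 in the edgeR quasi-likelihood fit. Among all genes tested, 34.7% were called higher and 35.7% lower in this comparison. On the log2 scale the 45 genes had a median difference of 3.54 (11.7-fold) beside -0.01 for all genes tested. In Ab-ASCs against Sub-ASCs, 44 were higher and 1 was not called, beside 37% of all genes called higher and 38.3% lower. Their median was 3.64 (12.5-fold) beside -0.03 for all genes. Both comparisons used the same Sub-ASC libraries, so they are not independent of each other. The counts of 44 held when any 1 of the 9 libraries was left out, and the Ab-ASC median was 3.75 without Ab-ASC 1. The exception in both was Pttg1, which encodes securin.

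**Figure D1:**
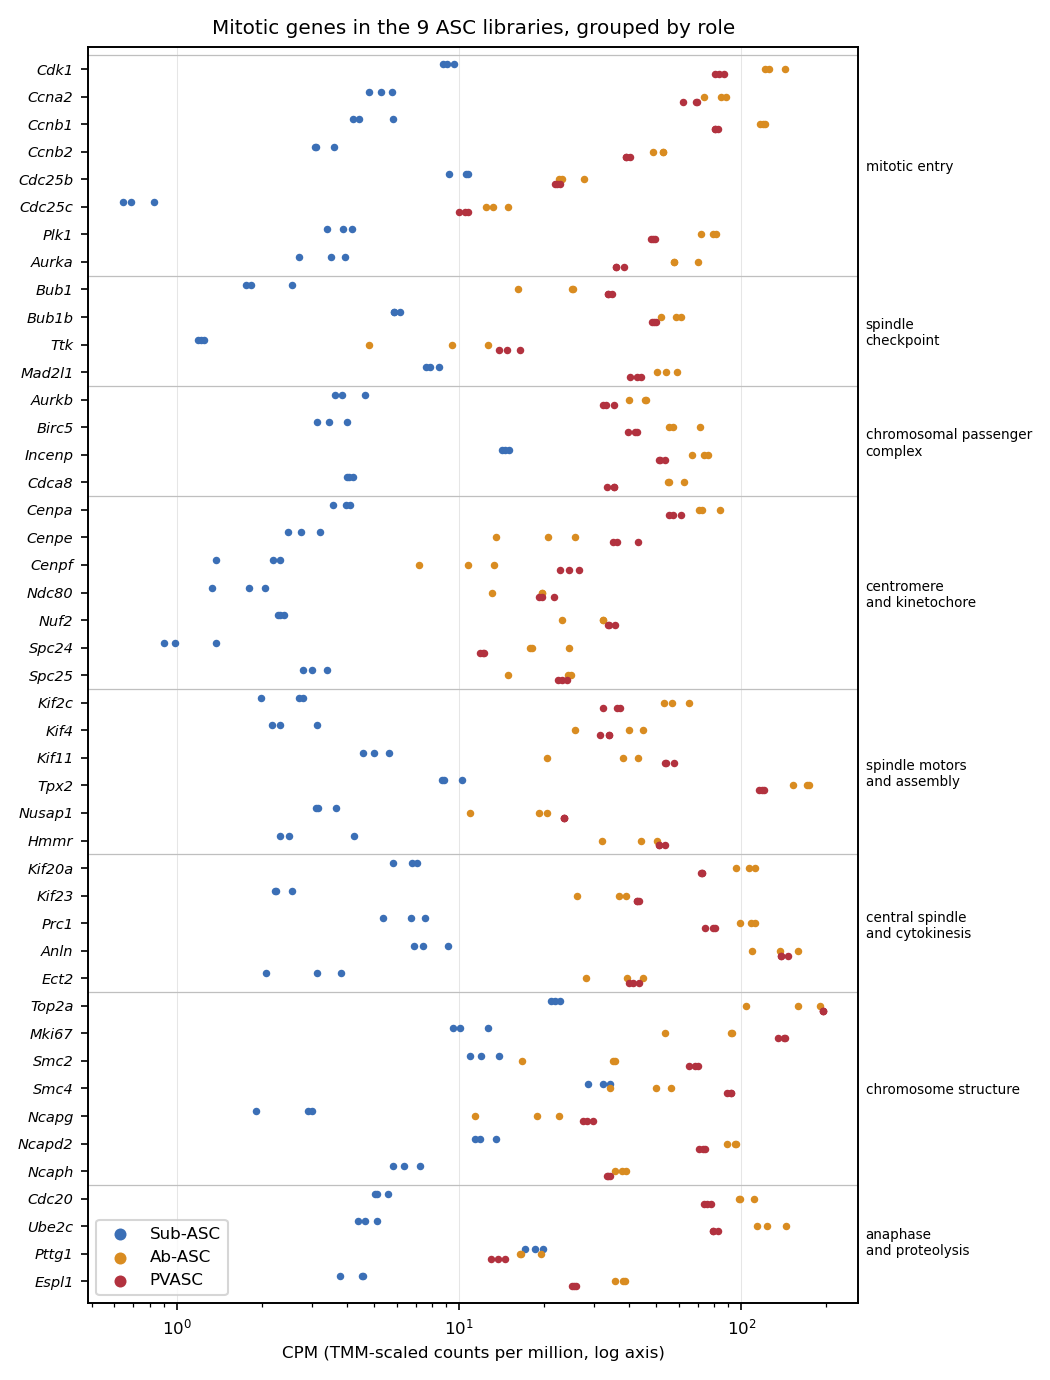
Level of each of the 45 mitotic genes in each library, in CPM on a log axis, grouped by role; every point is 1 library (3 Sub-ASC, 3 Ab-ASC and 3 PVASC). Sub-ASC points lie left of the others for nearly every gene, apart from Pttg1, where the 3 groups lie close together, and Smc4, where Ab-ASC 1 meets Sub-ASC 1.

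Many mitotic genes are known to be controlled through a short promoter element, the cell cycle genes homology region (CHR), which is bound by the DREAM complex in resting cells and by B-MYB and FOXM1 complexes later in the cycle, often next to CCAAT boxes bound by NF-Y. Since nearly all of the genes moved together, the RefSeq windows from 250 bases before to 50 bases after the start on GRCm38.p6 were searched for these elements on both strands. The CHR was searched with the letters TTTGAA. Another known spelling, TTCGAA, which reads the same on either strand, was counted with it. Further spellings were not searched, so a gene without a match may still hold a CHR. The NF-Y box was searched as CCAAT. A match of one can overlap a match of the other by 1 base. Windows were at hand for 37 of the 45 genes, all but Ccna2, Cdc25c, Aurkb, Incenp, Spc24, Tpx2, Kif20a and Smc4. A CHR match was in 29 of the 37 (78.4%), beside 21.7% of 27025 genes with a window, and a CCAAT match was in 28 (75.7%) beside 41.1%. Both were in 26 of the 37 (70.3%) beside 8.6% of all genes. Counting a match that lies in 2 windows of a gene once, the CCAAT matches lay mostly before the start, 63 of 64, with a median position of -74. The CHR matches lay around the start, with 20 before and 19 after it and a median position of -5. The start of the window was within 50 bases of the gene's 5′ end in the count table for 29 of the 37 genes. For Pttg1 it lay 270 bases inside the listed gene, so that window is not shown. The 120 bases before the start are shown for 6 genes that were higher in both groups, to show how the 2 elements are spaced. They were chosen with their matches known and each holds a CHR match there, whereas 9 of the 37 genes (24.3%) had one in the 100 bases before the start, so they do not stand for the other genes. Capitals mark the matches and each sequence is written 5′ to 3′ on the strand of its gene.
Cdk1, chr10:69352913-69353032, minus strand: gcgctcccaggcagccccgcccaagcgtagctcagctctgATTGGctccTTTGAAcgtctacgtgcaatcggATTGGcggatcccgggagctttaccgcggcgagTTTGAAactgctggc
Cdc20, chr4:118437344-118437463, minus strand: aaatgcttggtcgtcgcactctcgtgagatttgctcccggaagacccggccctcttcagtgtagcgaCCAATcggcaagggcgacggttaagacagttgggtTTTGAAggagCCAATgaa
Espl1, chr15:102296173-102296292, plus strand: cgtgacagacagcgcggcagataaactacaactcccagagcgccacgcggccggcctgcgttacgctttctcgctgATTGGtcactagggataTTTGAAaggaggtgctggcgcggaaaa
Top2a, chr11:99024190-99024309, minus strand: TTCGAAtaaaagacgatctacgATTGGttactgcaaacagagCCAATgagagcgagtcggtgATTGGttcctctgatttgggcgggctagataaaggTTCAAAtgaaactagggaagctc
Kif11, chr19:37376262-37376381, plus strand: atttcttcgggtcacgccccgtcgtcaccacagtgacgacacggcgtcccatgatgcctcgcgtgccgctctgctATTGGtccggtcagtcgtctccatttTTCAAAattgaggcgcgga
Ncapg, chr5:45669805-45669924, plus strand: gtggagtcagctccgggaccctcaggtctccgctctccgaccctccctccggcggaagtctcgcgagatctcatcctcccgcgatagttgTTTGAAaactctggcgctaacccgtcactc

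Cdk1 and Top2a held 2 CHR matches each in these bases, and Cdc20, Espl1, Kif11 and Ncapg held 1. CCAAT matches numbered 3 in Top2a, 2 in Cdk1 and Cdc20, 1 in Espl1 and Kif11 and 0 in Ncapg. A match is a description of the letters and was not tested as a binding site.

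Mitotic entry was the role with the largest median difference in Ab-ASCs. All 8 of its genes were higher in both groups, with medians of 3.63 in PVASCs and 4.08 in Ab-ASCs on the log2 scale. Cdk1 (ENSMUSG00000019942, chr10:69335146-69352938 as the files list it) encodes the kinase that triggers mitosis. It had 9.57, 9.08 and 8.73 CPM in the Sub-ASC libraries, 142, 121 and 125 CPM in the Ab-ASC libraries and 80.8, 83.4 and 86.8 CPM in the PVASC libraries. The groups did not overlap, and the log2 fold change was 3.20 ± 0.08 (SE; adjusted p = 2.81e-12) in PVASCs and 3.83 ± 0.08 (adjusted p = 6.12e-13) in Ab-ASCs against Sub-ASCs. Its partner cyclin B1, Ccnb1, had 4.21, 5.82 and 4.42 CPM in the Sub-ASC libraries, 117, 121 and 119.7 CPM in the Ab-ASC libraries and 80.8, 80.9 and 82.3 CPM in the PVASC libraries. Its fold changes were 16.8 and 24.7, among the largest of the 45. Processed pseudogenes near-identical to Ccnb1 are annotated, with at most 32 reads in a library beside at least 98 for Ccnb1, so its counts are uncertain by any reads split between them. Cyclin B2, Ccnb2, had 3.09, 3.10 and 3.58 CPM in the Sub-ASC libraries, 52.6, 48.6 and 52.6 CPM in the Ab-ASC libraries and 40.3, 38.9 and 39.1 CPM in the PVASC libraries. It had the highest level per length of the role in the mean of all 9 libraries, at 2.13 ± 0.183 FPKM in Sub-ASCs, 33.5 ± 1.49 FPKM in Ab-ASCs and 25.8 ± 0.508 FPKM in PVASCs (FPKM, reads scaled by library total and listed gene length; mean ± SD, n = 3, here and below). The kinase genes Plk1 and Aurka, which ready the centrosomes for the spindle, were 12.8-fold and 10.8-fold higher in PVASCs, and 20.4-fold and 18.2-fold higher in Ab-ASCs. Ccna2 (cyclin A2) and Cdc25c (a phosphatase that activates CDK1) were 12.7-fold and 14.3-fold higher in PVASCs. Cdc25b, a phosphatase of the same family, changed least of the role, 2.19-fold in PVASCs and 2.41-fold in Ab-ASCs.

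The 4 spindle checkpoint genes were all higher in both groups, with medians of 3.33 in PVASCs and 3.08 in Ab-ASCs. Bub1b, which encodes the checkpoint protein BUBR1, had 5.88, 6.17 and 5.87 CPM in the Sub-ASC libraries, 60.9, 52.0 and 58.9 CPM in the Ab-ASC libraries and 49.7, 49.1 and 48.4 CPM in the PVASC libraries. The difference from Sub-ASCs was 8.2-fold in PVASCs and 9.57-fold in Ab-ASCs. Bub1, its kinase relative, was 16.5-fold higher in PVASCs and 10.8-fold higher in Ab-ASCs. Ttk, the kinase that starts checkpoint signalling, was 12.3-fold and 7.42-fold higher. It was among the scarcest of the 45 genes, at 0.247 ± 0.00642 FPKM in Sub-ASCs, 1.82 ± 0.802 FPKM in Ab-ASCs and 3.05 ± 0.262 FPKM in PVASCs, and had the largest standard errors in both comparisons, 0.30 and 0.32 on the log2 scale. Mad2l1, whose product MAD2 holds CDC20 inactive, was 5.3-fold and 6.81-fold higher.

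The chromosomal passenger complex (the kinase AURKB with INCENP, survivin and borealin) corrects wrong attachments. All 4 of its genes were higher in both groups. Aurkb had 4.64, 3.62 and 3.85 CPM in the Sub-ASC libraries, 45.7, 40.0 and 46.0 CPM in the Ab-ASC libraries and 35.4, 33.2 and 32.3 CPM in the PVASC libraries. Birc5, which encodes survivin, had 3.13, 3.46 and 4.0 CPM in the Sub-ASC libraries, 71.2, 57.1 and 55.2 CPM in the Ab-ASC libraries and 41.9, 39.5 and 42.5 CPM in the PVASC libraries. Incenp, the scaffold, had 14.2, 15.1 and 14.6 CPM in the Sub-ASC libraries, 76.0, 66.8 and 73.9 CPM in the Ab-ASC libraries and 51.3, 53.6 and 51.2 CPM in the PVASC libraries. Incenp had the highest level per length of the 4 in each group and the smallest difference, 3.56-fold in PVASCs and 4.94-fold in Ab-ASCs, beside 8.35-fold to 11.7-fold for the other members in PVASCs. The make-up of the complex mRNAs therefore differed. Incenp held 58.7% ± 1.6 (SD, n = 3) of the FPKM summed over the 4 genes in Sub-ASCs, 33.8% ± 1.2 in Ab-ASCs and 34.8% ± 1.0 in PVASCs. Survivin took 13.4% ± 1.6 of the sum in Sub-ASCs and 27.0% ± 2.1 and 26.2% ± 1.0 in the other groups. Cdca8 (borealin) held 10.2% ± 0.3, 16.8% ± 0.6 and 14.4% ± 0.5, in the same order.

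Of the centromere and kinetochore genes, 7 of 7 were higher in both groups, with a median of 3.66 in PVASCs and 3.33 in Ab-ASCs. Cenpa encodes the histone H3 variant that marks centromeres. It had 3.56, 4.09 and 3.97 CPM in the Sub-ASC libraries, 84.1, 70.8 and 72.2 CPM in the Ab-ASC libraries and 60.9, 55.5 and 57.1 CPM in the PVASC libraries. The difference was 14.9-fold in PVASCs and 19.5-fold in Ab-ASCs, and Cenpa was the highest of the role per length in the mean of all 9 libraries, although Spc25 was higher in Sub-ASCs. Cenpf, which encodes a large coiled-coil protein of the outer kinetochore, had 2.19, 2.32 and 1.37 CPM in the Sub-ASC libraries, 7.19, 10.7 and 13.3 CPM in the Ab-ASC libraries and 24.6, 26.6 and 22.7 CPM in the PVASC libraries. It was the lowest of all 45 genes per length in each group, at 0.127 ± 0.0332 FPKM in Sub-ASCs, 0.674 ± 0.198 FPKM in Ab-ASCs and 1.6 ± 0.126 FPKM in PVASCs. Cenpe, a kinetochore motor, was 13.5-fold higher in PVASCs and 7.14-fold higher in Ab-ASCs. The NDC80 complex binds the microtubule through 4 subunits, and its genes were 7.57-fold (Spc25) to 14.7-fold (Nuf2) higher in PVASCs and 6.99-fold (Spc25) to 18.3-fold (Spc24) higher in Ab-ASCs. Spc25 held 47.7% ± 2.9 of the FPKM of the complex in Sub-ASCs, 30.4% ± 5.9 in Ab-ASCs and 35.5% ± 0.8 in PVASCs (SD, n = 3). Ndc80 itself held 13.2% ± 2.7, 12.2% ± 1.8 and 15.1% ± 1.1 of the sum, in the same order.

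The 6 genes for spindle motors and assembly were higher in both groups as well. Tpx2, whose product activates AURKA and nucleates microtubules, had 8.67, 10.3 and 8.85 CPM in the Sub-ASC libraries, 152, 171 and 174 CPM in the Ab-ASC libraries and 119.8, 116 and 118 CPM in the PVASC libraries. No Sub-ASC library came near the others, and the log2 fold change was 3.67 ± 0.08 (adjusted p = 8.68e-13) in PVASCs and 4.16 ± 0.08 (adjusted p = 3.27e-13) in Ab-ASCs. Hmmr, a spindle assembly factor, was 17.1-fold and 14.0-fold higher. Kif2c, a motor that shortens microtubules, was 14.2-fold and 23.4-fold higher. Kif4 and Kif11, a chromosome-arm motor and the motor that pushes spindle poles apart, were 13-fold and 10.9-fold higher in PVASCs. Nusap1, which bundles spindle microtubules, changed least of the role, 7.11-fold in PVASCs and 5.15-fold in Ab-ASCs.

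The central spindle and cytokinesis genes had the largest median in PVASCs, 3.79, and the narrowest range in Ab-ASCs, 3.64 to 4.10. Kif23 encodes a motor of the centralspindlin complex. Its difference in PVASCs was the largest of the 45 genes, 18.2-fold, and it had 2.23, 2.56 and 2.25 CPM in the Sub-ASC libraries, 26, 38.9 and 36.7 CPM in the Ab-ASC libraries and 42.5, 42.6 and 43.5 CPM in the PVASC libraries. On the log2 scale this was 4.19 ± 0.15, close to Anln at 4.16 ± 0.14. With the length and GC correction described below Ube2c was the largest, at 4.14 ± 0.08 beside 4.09 ± 0.11 for Kif23. Anln encodes anillin, the scaffold of the contractile ring, and had 6.91, 9.16 and 7.44 CPM in the Sub-ASC libraries, 109, 159 and 137 CPM in the Ab-ASC libraries and 147, 138 and 138 CPM in the PVASC libraries. It was 17.9-fold higher in PVASCs and 17.2-fold higher in Ab-ASCs, nearly the same size in this fit. With the correction the log2 fold changes of Anln were 4.03 ± 0.09 and 4.25 ± 0.09. Kif20a, a motor that carries the passenger complex to the midzone, had 7.08, 5.82 and 6.83 CPM in the Sub-ASC libraries, 112, 95.7 and 107 CPM in the Ab-ASC libraries and 72.8, 72.0 and 72.3 CPM in the PVASC libraries. The exons of Kif20a share 29.3% of their bases with Cdc23 on the opposite strand, and since the strand setting of the counting was not given in the sources used here, reads there cannot be assigned with certainty. Overlaps with a gene on the opposite strand touched 12 of the 45 genes, the next largest being Ube2c with Tnnc2 (22.8%, with no read counted on Tnnc2) and Kif4 with Pdzd11 (15.1%). Prc1, the bundler of the midzone, and Ect2, the exchange factor that starts furrowing, were 12.0-fold and 13.8-fold higher in PVASCs.

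Chromosome structure was the role with the smallest medians, 2.57 in PVASCs and 2.77 in Ab-ASCs, although all 7 of its genes were higher in both. Top2a, the topoisomerase that untangles sister chromatids, had 21.8, 22.8 and 21.2 CPM in the Sub-ASC libraries, 103, 190.5 and 159 CPM in the Ab-ASC libraries and 195, 195 and 195 CPM in the PVASC libraries. Mki67, which coats mitotic chromosomes and encodes the proliferation antigen Ki-67, had 9.49, 12.7 and 10.1 CPM in the Sub-ASC libraries, 53.7, 92.6 and 91.7 CPM in the Ab-ASC libraries and 134, 143 and 142 CPM in the PVASC libraries. In both genes Ab-ASC 1 was the lowest Ab-ASC library and PVASC libraries were the highest of all. The fold change against Sub-ASCs was 8.89 for Top2a and 13 for Mki67 in PVASCs, and 6.90 and 7.40 in Ab-ASCs. The condensin I subunits, which fold chromatids into rods, split. Ncapg was 11.0-fold and 6.81-fold higher. Its Ab-ASC difference moved from 2.77 to 3.48 on the log2 scale after the length and GC correction described below. Smc4, by contrast, was 2.88-fold higher in PVASCs and 1.48-fold higher in Ab-ASCs, the smallest difference called in the latter comparison. With the correction the Ab-ASC difference of Smc4 moved from 0.57 to 0.97 on the log2 scale. Smc4 had 34.1, 32.3 and 28.5 CPM in the Sub-ASC libraries, 34.1, 50.01 and 56.2 CPM in the Ab-ASC libraries and 92.0, 92.1 and 89.1 CPM in the PVASC libraries. Ab-ASC 1 thus met the Sub-ASC range. Smc4 held 50% ± 2.0 of the FPKM summed over the 5 condensin I genes in Sub-ASCs, 22.0% ± 3.2 in Ab-ASCs and 32.8% ± 0.2 in PVASCs (SD, n = 3). These shares include Ab-ASC 1 and were not corrected for length and GC content. Smc2 and Smc4 also serve condensin II, which is present outside mitosis.

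Without the length and GC correction described below, the 4 anaphase genes held the largest difference in Ab-ASCs. In Pttg1 they also held the smallest in both comparisons. Cdc20, the activator of the anaphase-promoting complex, had 5.58, 5.03 and 5.11 CPM in the Sub-ASC libraries, 111, 97.8 and 98.9 CPM in the Ab-ASC libraries and 78.2, 73.8 and 75.7 CPM in the PVASC libraries. It was the highest of the 45 genes per length in Ab-ASCs and PVASCs, at 2.81 ± 0.159 FPKM in Sub-ASCs, 54.8 ± 3.80 FPKM in Ab-ASCs and 40.6 ± 1.18 FPKM in PVASCs. Ube2c, the ubiquitin-conjugating enzyme of that complex, had 4.38, 5.11 and 4.65 CPM in the Sub-ASC libraries, 144, 114 and 123 CPM in the Ab-ASC libraries and 82.8, 79.5 and 79.5 CPM in the PVASC libraries. Its 26.9-fold difference in Ab-ASCs was the largest of the 45 genes, and in PVASCs it was 17.1-fold. With the correction Ccnb1 was the largest in Ab-ASCs, at 4.8 ± 0.09 on the log2 scale beside 4.65 ± 0.08 for Ube2c. Espl1, which encodes separase, was 5.94-fold and 8.73-fold higher. Pttg1 (ENSMUSG00000020415, chr11:43420250-43426251), the gene of the securin that inhibits separase, had 19.8, 17.1 and 18.5 CPM in the Sub-ASC libraries, 19.5, 16.5 and 16.4 CPM in the Ab-ASC libraries and 13, 14.5 and 13.7 CPM in the PVASC libraries. Its Sub-ASC and Ab-ASC ranges overlapped, with a log2 fold change of -0.08 ± 0.09 (adjusted p = 0.439), and PVASCs lay below both. Against Sub-ASCs the PVASC value fell by 0.43 ± 0.09 on the log2 scale (adjusted p = 1.18e-03). Per length, Pttg1 had 9.24 ± 0.664 FPKM in Sub-ASCs, 8.75 ± 0.887 FPKM in Ab-ASCs and 6.87 ± 0.395 FPKM in PVASCs. It ranked first of the 45 genes in Sub-ASCs, 23 in Ab-ASCs and 30 in PVASCs.

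**Figure D2:**
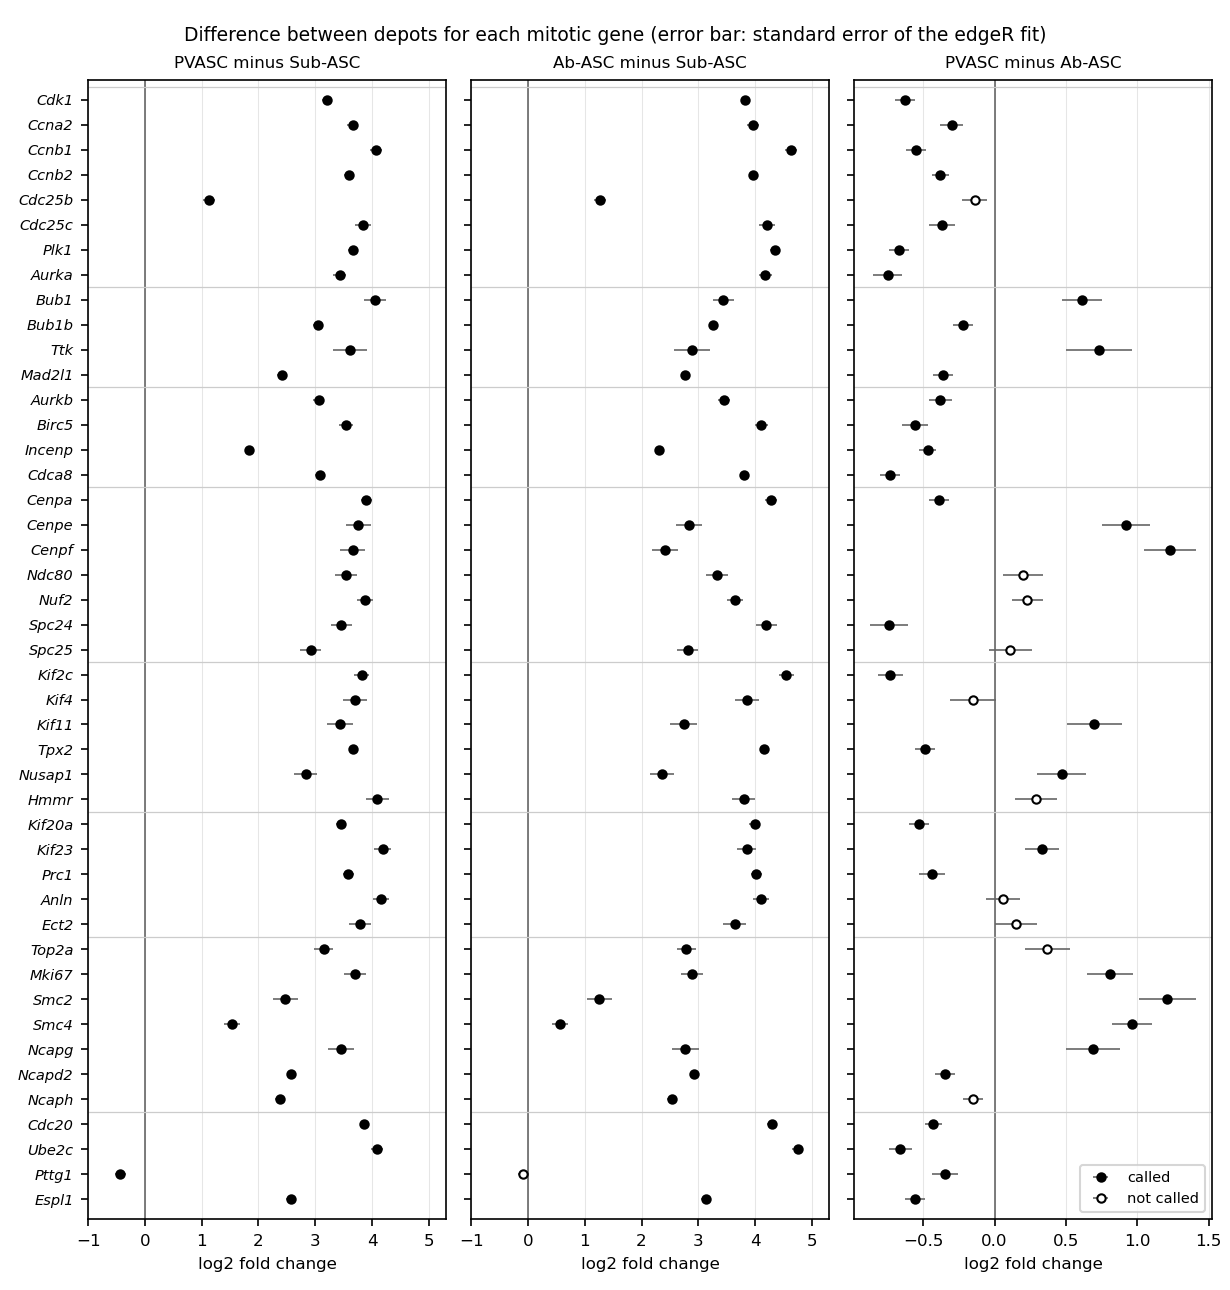
Log2 fold change of each of the 45 mitotic genes in the 3 comparisons, with the standard error of the edgeR fit as error bar; filled points passed an adjusted p of 0.05 and open points did not. Against Sub-ASCs 44 genes lie right of 0 in either comparison and Pttg1 does not, whereas between PVASCs and Ab-ASCs the genes lie on both sides.

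Other genes of the cell cycle were read from 6 lists of known function. Beside them, 34.7% of all genes tested were called higher and 35.7% lower in PVASCs against Sub-ASCs. In Ab-ASCs against Sub-ASCs these shares were 37% and 38.3%. Of 66 other mitotic genes, 64 were higher and 0 lower in PVASCs, and 63 were higher and 0 lower in Ab-ASCs, with medians of 3.07 and 2.94. Depdc1a had the largest difference in both, 4.90 ± 0.25 on the log2 scale in PVASCs and 4.64 ± 0.26 in Ab-ASCs (5.31 ± 0.17 with the length and GC correction described below). Genes of DNA replication, the step before mitosis, were also higher, 40 of 40 in PVASCs and 39 of 40 in Ab-ASCs, but by less, with medians of 1.89 and 2.05. The largest was Rrm2, the regulated subunit of ribonucleotide reductase, which had 8.29 ± 0.923 CPM in Sub-ASCs, 205 ± 12.2 CPM in Ab-ASCs and 113 ± 2.84 CPM in PVASCs.

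The regulators of the mitotic programme were divided. Of 19, 12 were higher and 3 lower in PVASCs, and 13 were higher and 4 lower in Ab-ASCs, with medians of 0.54 and 0.67. Foxm1, the transcription factor of late-cycle genes, had 6.48, 8.33 and 6.37 CPM in the Sub-ASC libraries, 87.5, 82.1 and 87.5 CPM in the Ab-ASC libraries and 60.0, 63.9 and 63.7 CPM in the PVASC libraries. Mybl2, which encodes B-MYB, was 2.90 ± 0.12 higher in PVASCs and 3.07 ± 0.12 higher in Ab-ASCs on the log2 scale. The atypical E2F repressors had the largest differences of the list, E2f8 with 3.76 ± 0.20 in PVASCs and E2f7 with 3.80 ± 0.12 in Ab-ASCs. Rbl2, which encodes p130, the pocket protein of the DREAM complex in resting cells, was the largest fall in both. It had 54.8 ± 3.27 CPM in Sub-ASCs, 26.9 ± 1.48 CPM in Ab-ASCs and 28.2 ± 0.764 CPM in PVASCs, which was -0.96 ± 0.07 and -1.02 ± 0.07 on the log2 scale in PVASCs and Ab-ASCs.

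The genes of the anaphase-promoting complex itself, on which Cdc20 and Ube2c act, differed by less than the mitotic genes in their medians. Of its 16 genes, 8 were higher and 3 lower in PVASCs, and 12 were higher and 1 lower in Ab-ASCs, with medians of 0.12 and 0.30. The largest difference was that of Ube2s, its chain-elongating enzyme, at 1.62 ± 0.08 and 2.35 ± 0.08, the subunit Anapc15 was higher by 1.44 ± 0.11 and 2.31 ± 0.10, and the cullin-like subunit Anapc2 fell by 0.27 ± 0.05 in PVASCs. Of the 9 cohesin genes, whose ring is what separase cuts, 3 were higher and 0 lower in PVASCs. The 3 of 9 higher there were close to the share of all genes called higher. In Ab-ASCs 1 cohesin gene was higher and 6 were lower. Their medians were 0.10 and -0.64, and Stag2, a core subunit, fell by 1.58 ± 0.20 on the log2 scale in Ab-ASCs. With the length and GC correction described below, the Ab-ASC median was -0.30 and Stag2 was at -1.11 ± 0.09. Rad21, the subunit that separase cleaves, was higher by 0.46 ± 0.05 in PVASCs and 0.42 ± 0.05 in Ab-ASCs. In PVASCs against Sub-ASCs 1 cohesin gene was higher without Sub-ASC 1, Sub-ASC 3 or PVASC 1, and 2 were lower without Ab-ASC 1, a library that enters this comparison through the shared estimate of the spread. With the correction 3 were higher and 3 lower in PVASCs against Sub-ASCs, and the median turned to -0.13.

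Genes that hold or release cells in G1 did not move as a block. Of 16, 12 were higher and 4 lower in PVASCs, beside 34.7% and 35.7% of all genes tested. In Ab-ASCs 9 were higher and 5 lower, beside 37% and 38.3%. Ccnd1 (cyclin D1), which links growth factors to the cell cycle, was the largest rise in both comparisons, with 32.0 ± 0.928 CPM in Sub-ASCs, 189 ± 7.38 CPM in Ab-ASCs and 525 ± 5.57 CPM in PVASCs. Cdkn1c, the CDK inhibitor p57, had the largest fall in both, with 37.4 ± 2.27 CPM in Sub-ASCs, 0.80 ± 0.202 CPM in Ab-ASCs and 0.952 ± 0.128 CPM in PVASCs. Cdkn1a, the inhibitor p21, was higher in both, by 1.13 ± 0.06 and 1.25 ± 0.06 on the log2 scale. Cdkn2a, the locus of p16 and ARF, had 6.57, 6.41 and 6.83 CPM in the Sub-ASC libraries, 7.57, 6.53 and 4.68 CPM in the Ab-ASC libraries and 47, 43.5 and 49.3 CPM in the PVASC libraries. Its PVASC libraries lay above all others, with log2 fold changes of 2.82 ± 0.12 (adjusted p = 5.21e-10) against Sub-ASCs and 2.91 ± 0.13 (adjusted p = 2.68e-09) against Ab-ASCs.

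**Figure D3:**
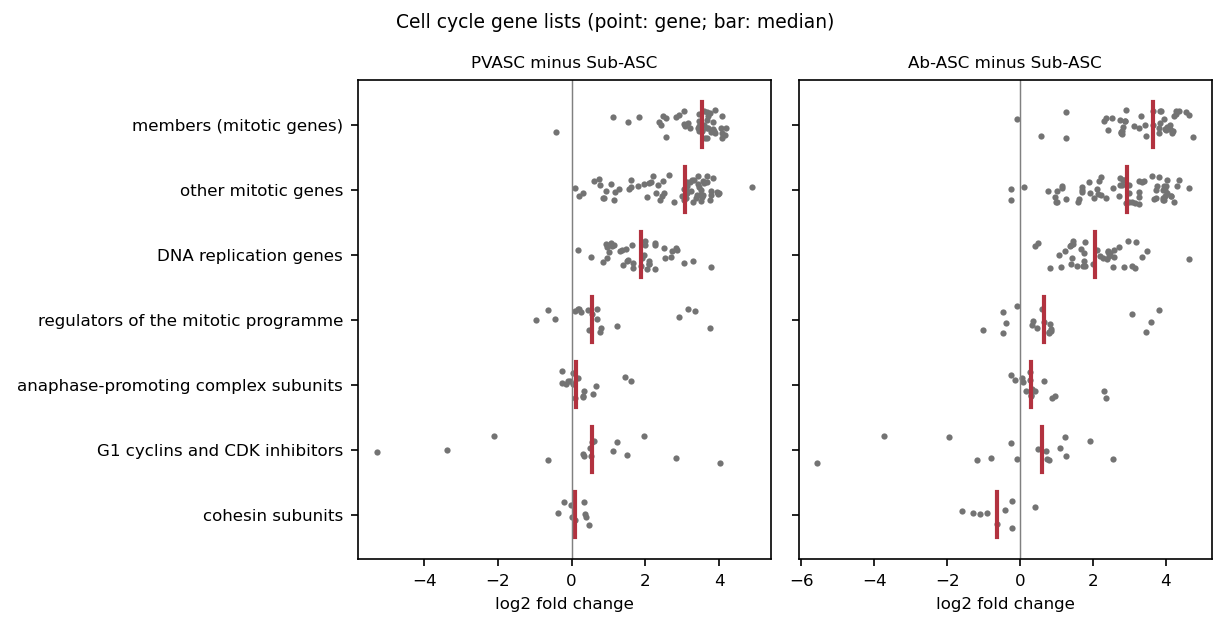
Log2 fold changes of the 45 mitotic genes and of 6 other cell cycle lists against Sub-ASCs, with 1 grey point per gene and a red bar at the median. The medians of the 2 mitotic lists lie between 2.94 and 3.64 and those of the DNA replication genes at 1.89 and 2.05, while those of the other lists lie between -0.64 and 0.67.

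Between PVASCs and Ab-ASCs the 45 genes did not move together. In PVASCs 11 were higher, 24 were lower and 10 were not called, with a median of -0.30 and a range from -0.75 (Aurka) to 1.23 (Cenpf). Among all genes tested, 24.7% were called higher and 32.1% lower, with a median of -0.06. The counts by role were uneven. Of mitotic entry 7 of 8 were lower and 0 higher (median -0.47), and the chromosomal passenger and anaphase genes were lower in 4 of 4 each (medians -0.52 and -0.49). Of chromosome structure 4 of 7 were higher and 1 lower (median 0.69). The other roles held genes of both directions. With the length and GC correction described below, the chromosome structure genes were 3 higher and 2 lower (median -0.01) and the central spindle genes 0 higher and 4 lower, whereas mitotic entry, the passenger complex and anaphase kept their counts. Cdk1 at 80.8 to 86.8 CPM in PVASCs lay below 121 to 142 CPM in Ab-ASCs, with -0.63 ± 0.07 on the log2 scale (adjusted p = 9.52e-06). Mki67 at 134 to 143 CPM in PVASCs lay above 53.7 to 92.6 CPM in Ab-ASCs, 0.81 ± 0.16 higher (adjusted p = 1.17e-03). Cenpf was 2.35-fold higher in PVASCs, at 1.23 ± 0.18 on the log2 scale (adjusted p = 9.59e-05), and Anln differed by 0.06 ± 0.12 (adjusted p = 0.670). With the correction Anln was called lower in PVASCs, at -0.22 ± 0.07 (adjusted p = 0.0163).

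The direction of these differences moved with the base composition of the genes. The 11 genes higher in PVASCs had a median GC content of 42.2% (34.8% to 46.6%) and a median listed length of 5478 bases, and the 24 lower ones had 49.0% (40.1% to 56.1%) and 3939 bases. Across the 45 genes, which are not independent replicates, Spearman's rho of GC content with the PVASC minus Ab-ASC log2 fold change was -0.70 (Pearson's r = -0.68). Over 16511 genes tested it was -0.31. The same gradient stood in all genes by GC class, with medians of 0.45, 0.05, -0.11 and -0.21 from the lowest to the highest class, beside 0.47, 0.06, -0.49 and -0.51 for the mitotic genes. GC content had no such relation to the difference between PVASCs and Sub-ASCs, with a rho of -0.06 over the 45 genes, and for Ab-ASCs minus Sub-ASCs rho was 0.42.

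**Figure D4:**
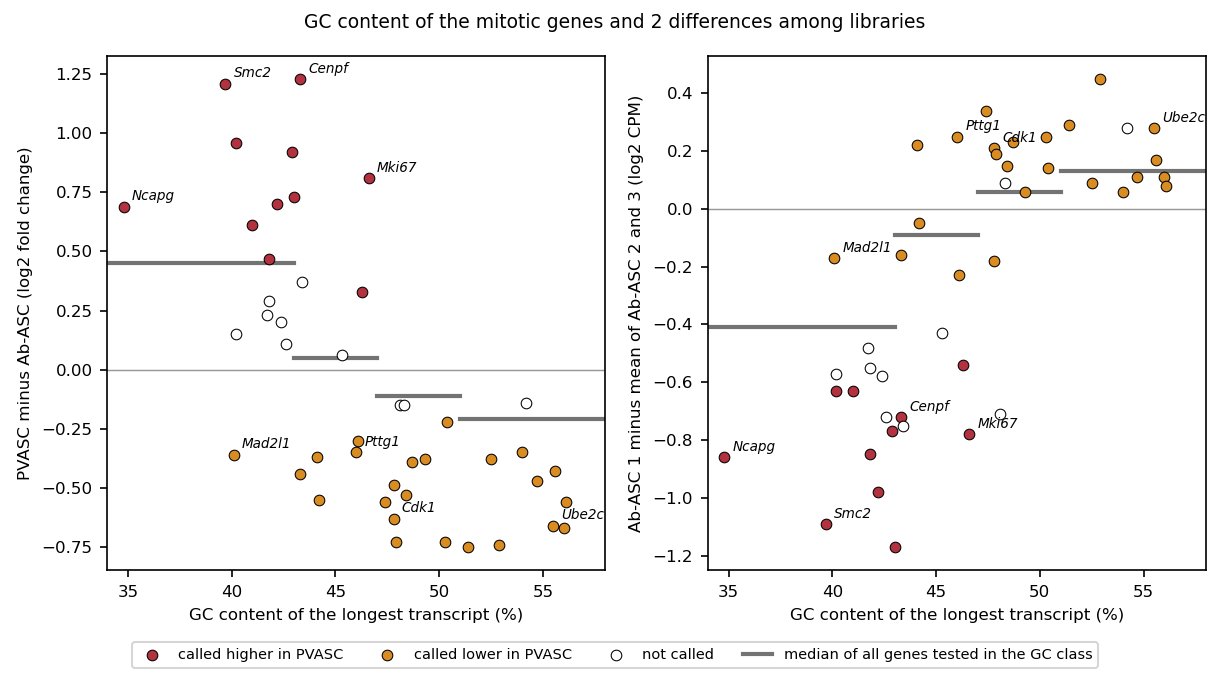
Left, the PVASC minus Ab-ASC log2 fold change of each mitotic gene against the GC content of its longest transcript; right, the log2 CPM of Ab-ASC 1 minus the mean of Ab-ASC 2 and 3 for the same genes. Grey lines are the medians of all genes tested in 4 GC classes (up to 43%, 47%, 51% and above), which fall from 0.45 to -0.21 on the left and climb from -0.41 to 0.13 on the right.

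The comparison was repeated without Ab-ASC 1 and, separately, with all 9 libraries after removing each library's trend on GC content and gene length. Without Ab-ASC 1, 12 of the 45 genes were higher and 25 lower in PVASCs, beside 23.8% and 30.4% of all genes tested, among them all 11 and all 24 of the first fit. The median stayed at -0.30, and rho with GC content was -0.66. The differences of the higher genes shrank, for Cenpf to 1.04 ± 0.12 and for Mki67 to 0.60 ± 0.06. With the correction, 7 were higher and 28 lower, beside 20.1% and 36.9% of all genes. Cenpf was then 0.73 ± 0.12, Smc2 moved from 1.21 ± 0.20 to 0.64 ± 0.11, Smc4 from 0.96 ± 0.14 to 0.43 ± 0.08 and Mki67 from 0.81 ± 0.16 to 0.59 ± 0.11, all still called. In this fit rho was -0.37 for the 45 genes and 0.03 for all. The 24 lower genes were called lower in all 3 fits. The genes higher in all 3 fits were 7, namely Ttk, Cenpe, Cenpf, Kif11, Mki67, Smc2 and Smc4. Bub1, Nusap1 and Kif23 were no longer called after the correction. Ncapg, with 34.8% GC the lowest of the 45, turned from 0.69 ± 0.19 to -0.27 ± 0.09 (adjusted p = 0.0183), so its direction depends on the correction. Top2a moved from 0.37 ± 0.16 (adjusted p = 0.0613) to 0.16 ± 0.06 without Ab-ASC 1 and to -0.01 ± 0.09 with the correction. Against Sub-ASCs, by contrast, the correction left 44 genes higher in either comparison, beside 34% of all genes higher and 38.9% lower in PVASCs and 39% higher and 37.7% lower in Ab-ASCs, with medians of 3.50 in PVASCs and 3.81 in Ab-ASCs.

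The other lists gave the setting for these differences. Beside them, 24.7% of all genes tested were called higher and 32.1% lower in PVASCs than in Ab-ASCs. With the correction these shares were 20.1% and 36.9%. Of the 66 other mitotic genes 10 were higher and 36 lower in PVASCs than in Ab-ASCs (median -0.26), with Kif18a at 1.21 ± 0.21 (0.48 ± 0.14 with the correction) and Cenpm at -0.88 ± 0.13 (-0.72 ± 0.11) as the extremes. With the correction the extremes were Ckap5 at 0.49 ± 0.09 and Cenpw at -1.56 ± 0.18, the latter at -0.71 ± 0.14 without it. DNA replication genes were lower in 26 of 40 and higher in 3 (median -0.31). Rrm1, the large subunit of ribonucleotide reductase, fell by 0.90 ± 0.06, and Pola1, the catalytic subunit of DNA polymerase alpha, was 1.25 ± 0.18 higher. With the correction 33 were lower and 2 higher, Rrm1 was at -1.37 ± 0.11 and Pola1 at 0.75 ± 0.12. Foxm1 was lower in PVASCs by 0.45 ± 0.08 (adjusted p = 3.83e-04), and Mybl2 differed by -0.17 ± 0.10 (adjusted p = 0.152). Of the anaphase-promoting complex list 10 genes were lower and 1, Cdc27, was higher at 0.82 ± 0.18 (0.25 ± 0.08 with the correction). Anapc15 fell most without the correction, at -0.87 ± 0.09, and the lowest value of this list with it was -0.94. Of 19 regulators, 2 were higher and 5 lower, both below the shares of all genes. Rb1 was at 0.63 ± 0.16 (0.15 ± 0.10 and not called with the correction) and E2f7 at -0.46 ± 0.09. The cohesin genes were higher in 8 of 9 (median 0.60), the largest being Stag2 at 1.68 ± 0.20. With the correction 5 were higher and 1 lower (median 0.36), and Stag2 was at 0.97 ± 0.09. The 16 G1 genes split into 6 higher and 5 lower, the latter close to the share of all genes called lower. Cdkn2c, the inhibitor p18, fell by 0.53 ± 0.06.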

How the data were processed

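Bulk RNA-seq of mouse ASCs from 3 adipose depots was analysed, with 3 libraries per group assigned from the labels. The files the authors deposited hold raw counts, with gene length and position. Per the processing notes, CASAVA 1.8, Bowtie 0.12.2 and featureCounts 1.5.0-p3 were used, with mm8 and mm10 named without a role. The annotation and strand setting were not given in the sources used here. Gene positions matched GENCODE M21 (GRCm38) for 98.3% of 54532 genes and 42 of the 45 mitotic genes.

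Counts were filtered by filterByExpr, scaled by TMM and tested with edgeR 4.0.16 in R 4.3.3, all 9 libraries in 1 fit without covariates, Benjamini-Hochberg over 16526 genes, threshold 0.05. Errors of fold changes are SEs, the log2 fold change divided by the square root of F. FPKM was calculated here. At these depths 3 reads in a library equal 0.0917 to 0.161 CPM, for counting error only. The fit was also run on simulated counts. These held no trend on GC content, unlike the data, so that run does not vouch for the results here. Alternatives were DESeq2 1.42.0, RLE size factors, no filter, at least 10 reads in every library, fitting only the groups compared, a replicate block and leaving out each library. A correction for GC content of the longest M21 transcript and listed length (loess, span 0.5, as offsets) was added after seeing the data. Near-identical copies (at least 95% over 200 bases) were sought with BLAST+ 2.17.0, and tables were made with Python 3.11.15 and pandas 2.3.3.

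The 45 genes, the lists and the tests were chosen with earlier results of these data known. Values in every library are given for the member with the highest mean FPKM of each role, the largest and smallest change of each comparison, members not called or against the majority in a comparison with Sub-ASCs, and Cdk1, Ccnb1, Mki67, Top2a, Aurkb and Birc5. Of each other list the largest rise and fall among the called genes are named, with Foxm1, Mybl2, Ccnd1, Cdkn1a and Cdkn2a. Smc4 with its libraries, Ckap5 and Cenpw were chosen after their values were seen.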

Additional observations from a re-analysis of the deposited data

How the results depend on the processing

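Against Sub-ASCs, all 720 values of the 45 genes under the alternatives kept their direction and their side of the threshold in either comparison. Between PVASCs and Ab-ASCs 684 of 720 did so, 13 lost and 11 gained a call in the same direction, and 12 changed sign, of which 3 went from not called to called. With the length and GC correction the log2 fold changes that changed sign were Ndc80 -0.21, Nuf2 -0.23, Spc25 -0.18, Hmmr -0.14, Anln -0.22, Ect2 -0.39, Top2a -0.01 and Ncapg -0.27. Nuf2, Anln and Ect2 gained a call there. With a library left out, Spc25 ranged from -0.08 to 0.23, Anln from -0.07 to 0.19, Ect2 from -0.02 to 0.29 and Kif4 from -0.35 to 0.00; the first 3 changed sign without Ab-ASC replicate 1 and Kif4 without Ab-ASC replicate 2. The correction also gave 7 mitotic genes higher in PVASCs than in Ab-ASCs (8 to 14 with a library left out) and an Ab-ASC median of 3.81 against Sub-ASCs (3.42 to 3.75). In the smaller lists it gave 3 cohesin genes lower in PVASCs than in Sub-ASCs, 5 cohesin genes higher and 1 lower than in Ab-ASCs, and 0 regulators higher. The replicate block gave 1 cohesin gene lower in PVASCs than in Sub-ASCs and a log2 fold change of 0.40 for Top2a between PVASCs and Ab-ASCs, now called, and changed no other call of the 45 genes. Same-numbered libraries deviated together with correlations of 0.0222 to 0.0320, -0.0405 to 0.0723 and -0.0197 to -0.00294 over 16526 genes, so the numbers were not taken as pairs. Leaving out 1 library moved small counts. Cohesin genes higher in PVASCs than in Sub-ASCs ranged from 1 to 4 (1 without Sub-ASC 1, Sub-ASC 3 or PVASC 1) and those lower from 0 to 2. Anaphase-promoting complex genes lower ranged from 1 to 3 (1 without PVASC 3), and other mitotic genes lower in Ab-ASCs than in Sub-ASCs from 0 to 2 (2 without Ab-ASC 2). Between PVASCs and Ab-ASCs, regulators ranged from 1 to 3 higher and 3 to 6 lower (1 and 3 without PVASC 1), and G1 genes from 3 to 7 lower (3 without PVASC 2). In the 100 bases before the start, CHR matches were in 24.3% and CCAAT matches in 64.9% of the 37 mitotic genes with a window, beside 7.2% and 21.6% of all 27025. The cause of these changes was not tested, apart from the narrower window, which holds fewer bases.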
